A study of Mus musculus with 2 samples.

Results

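The endothelin family of signalling genes was described in embryonic mouse tongue at embryonic day 12, in 1 library of control tongues and 1 library of tongues with reduced Osr1. The 7 members, of 22072 gene symbols in the deposited tables, are the ligands Edn1, Edn2 and Edn3, the receptors Ednra and Ednrb, and the converting enzymes Ece1 and Ece2. They were chosen by gene symbol, and the family was picked with the low value of Ednrb in mutant tongues already known, so all ratios below are descriptions of these libraries. Control tongues had a floxed and a wild-type allele of Osr1 (Osr1f/+). Mutant tongues had a floxed and a null allele and also Wnt1cre (Osr1f/-; Wnt1cre), a Cre recombinase that acts in neural crest cells and their descendants. Both were on a mixed background, and the control label names neither the null allele nor Wnt1cre, so effects of these 2 and of the loss of Osr1 in the crest cannot be told apart. RNA came from tongues pooled over 3 pairs of control and mutant samples. With 1 library per genotype there was no replicate spread and no test between genotypes.

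Endothelins are short secreted peptides, cut from larger precursors by furin-type convertases and then by the membrane metallopeptidases Ece1 and Ece2. They act on receptors coupled to G proteins: Ednra binds Edn1 and Edn2 and responds poorly to Edn3, while Ednrb binds all of them. In the embryo, Edn1 from arch epithelium and core mesoderm signals through Ednra in cranial neural crest to pattern the lower jaw. Edn3 signals through Ednrb in the crest cells that form melanocytes and enteric neurons, and both receptors are also used by blood vessels.

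The ligands differ in a short stretch. The coding bases of the mature peptide are shown because they are the part by which the receptors tell the ligands apart, and capitals mark the 4 cysteine codons that form the peptide's disulfide bridges. They were read 5′ to 3′ from the GENCODE M21 transcripts (GRCm38), at chr13:42303649-42303711 for Edn1, chr4:120161951-120162013 for Edn2 and chr2:174761749-174761811 for Edn3, all on the plus strand and each within 1 coding exon.
Edn1: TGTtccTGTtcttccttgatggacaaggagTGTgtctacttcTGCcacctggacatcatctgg
Edn2: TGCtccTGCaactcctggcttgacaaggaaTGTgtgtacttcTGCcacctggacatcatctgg
Edn3: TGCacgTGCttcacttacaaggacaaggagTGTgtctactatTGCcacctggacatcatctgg
Over these 63 bases, Edn1 and Edn2 shared 53 bases and encoded a different residue at 3 of 21 codons. Edn3 encoded a different residue from Edn1 at 6 codons, and likewise from Edn2 at 6 codons.

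The converting enzymes carry a zinc site that performs the cut. The bases around its His-Glu-x-x-His motif are shown because 1 transcript listed under Ece2 lacks it, and capitals mark the codons of its histidines and glutamate. They lie at chr4:137957157-137957201 for Ece1 and chr16:20643875-20643919 for Ece2 (GRCm38, plus strand, GENCODE M21), each within 1 coding exon.
Ece1: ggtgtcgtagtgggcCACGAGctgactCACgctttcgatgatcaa
Ece2: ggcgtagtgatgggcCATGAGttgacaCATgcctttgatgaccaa
Of these 45 bases 34 were identical, and 14 of 15 codons encoded the same residue. Over the whole translated proteins, Ece1 and Ece2 were identical at 62.3% of 749 aligned residues. The receptors Ednra and Ednrb were identical at 57.5% of 419 aligned residues.

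The deposited values were FPKM, fragments per kilobase of transcript and per 1000000 mapped fragments, in 28107 RefSeq transcript rows. The deposited coverage put the depth at about 18900000 mapped reads in control and 23100000 in mutant tongues. At that depth 3 reads on a transcript of 1 kb correspond to 0.159 and 0.130 FPKM. A gene was called measured when it reached 1 FPKM in either library and all its rows had the status OK, which 12383 genes did. Osr1 itself, whose value checks the labels, had 56.8 FPKM in control and 18.4 FPKM in mutant tongues, and its paralog Osr2 had 13.6 and 17.3 FPKM. The labels do not give the bases that the floxed allele loses, so the Osr1 value may include transcript that no longer encodes the protein. The tissue label was met by muscle, mesenchyme and epithelium markers in both libraries, such as Myog at 80.8 and 84.9 FPKM, Pdgfra at 75.3 and 80.3 FPKM and Krt15 at 35.3 and 30.1 FPKM.

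Of the 7 members, 5 were measured and the ligands Edn1 and Edn2 stayed under 1 FPKM in both libraries. In the control library the level in FPKM ran, from high to low, Ednra, Ece1, Ednrb, Ece2, Edn3, Edn1 and Edn2. The counting intervals of Ece1 and Ednrb overlapped there, so those neighbours in the order did not differ beyond counting error. Those of Edn1 and Edn2 overlapped in both libraries, so their order was not resolved either. In the mutant library Ednrb stood in the fifth place, below Ece2 and Edn3, and the other members stood in the same order as in control tongues. The counting intervals of Ece2, Edn3 and Ednrb overlapped in mutant tongues. The place of Ece2 rests on the sum of all rows under that symbol; its peptidase rows alone, at 2.26 and 2.12 FPKM, stood below Edn3 in both libraries, which puts Ednrb in the fourth place in mutant tongues.

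**Figure D1:**
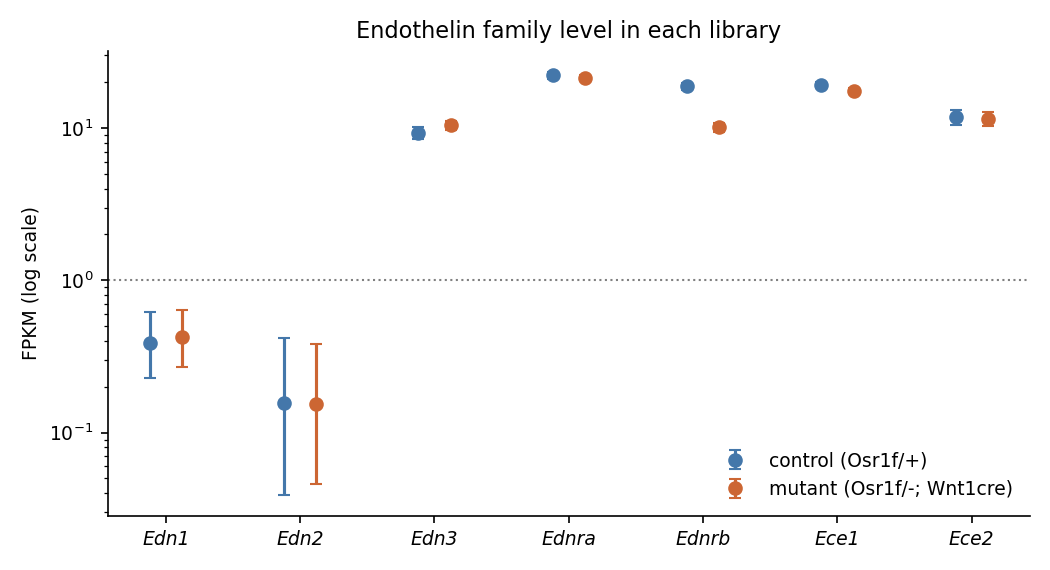
FPKM (log scale) of each endothelin gene in the control library and the mutant library; points are the deposited values summed per symbol and bars are 95% counting intervals (counting error only), with a dotted line at 1 FPKM. Ednrb is the gene whose 2 intervals are farthest apart, at 18.8 and 10.1 FPKM, and Edn1 and Edn2 lie under the line.

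Edn3 was the main ligand gene of both libraries. It (NM_007903, mm9 chromosome 2, 174586274 to 174609543) had 9.27 FPKM in control and 10.4 FPKM in mutant tongues, from about 518 and 712 reads. The mutant value was slightly higher, with a ratio of 1.12 and a 95% counting interval of 1.001 to 1.26. Edn3 held 94.5% of the summed ligand FPKM in control and 94.7% in mutant tongues. Its level was near the middle of the measured genes, above 47.7% of them in control tongues.

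Edn1, the ligand of jaw patterning, was low. It (NM_010104, chromosome 13, 42396639 to 42403358) had 0.388 FPKM in control and 0.426 FPKM in mutant tongues, from about 17 and 23 reads. The ratio of 1.10 had a counting interval of 0.563 to 2.18, so a difference of up to about that size was not detectable at this depth. Edn3 was 23.9 times as abundant as Edn1 per transcript length in control and 24.4 times in mutant tongues. Edn2, known as a vasoactive intestinal contractor peptide in the mouse, had 0.156 FPKM in control and 0.155 FPKM in mutant tongues (NM_007902, chromosome 4, 119834029 to 119839965). These values rest on about 4 reads in each library, close to the floor of 3 reads, at 0.128 and 0.104 FPKM for a transcript of this length. Fewer cells that express a gene and less RNA per cell cannot be told apart in these bulk libraries.

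The receptors differed from each other in their ratios. Ednra (NM_010332, chromosome 8, 80186928 to 80248351) had 22.2 FPKM in control and 21.2 FPKM in mutant tongues. The counting interval of its ratio, 0.956, ran from 0.892 to 1.02 and included no difference. Ednrb (chromosome 14, 104213842 to 104243390) had 18.8 FPKM in control and 10.1 FPKM in mutant tongues, from about 1386 and 908 reads. Ednrb was thus lower in mutant tongues by 46.2%, a ratio of 0.538 with a counting interval of 0.494 to 0.585, and the intervals of the libraries, 17.8 to 19.8 and 9.45 to 10.8 FPKM, did not overlap.

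The summed receptor level was 41.0 FPKM in control and 31.3 FPKM in mutant tongues. Ednrb made up 45.8% of it in control and 32.2% in mutant tongues. The receptor genes were thus close to even in control tongues, with 1.18 times as much Ednra as Ednrb, and Ednra was 2.10 times as abundant in mutant tongues.

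Ednrb was the 1 of 5 measured members that was at least 1.5-fold lower on the scale of FPKM plus 1, and no member was at least 1.5-fold higher. Over all 12383 measured genes 0.581% were at least 1.5-fold lower and 0.896% at least 1.5-fold higher. The low value of Ednrb was known when the family was chosen, so nothing is read from this count. On the same scale its log2 ratio of −0.83 was the 45th lowest of all measured genes and the 13th lowest of 8970 genes that reached 5 FPKM. At the smaller threshold of 1.2-fold, no further member was called, where 3.46% of all measured genes were lower and 4.77% higher. The median log2 ratio of the 5 measured members was −0.06, beside 0.0035 over all measured genes.

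**Figure D2:**
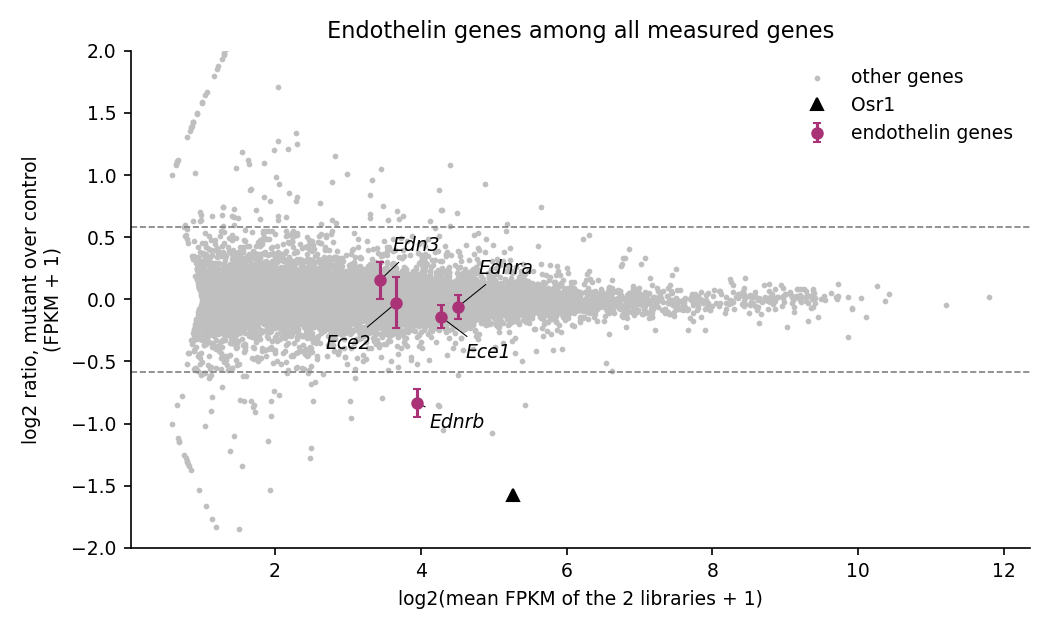
Log2 ratio of mutant over control (FPKM + 1) against log2 of the mean FPKM + 1 for all measured genes (grey), the 5 measured endothelin genes (purple, with 95% counting intervals) and Osr1 (triangle); dashed lines mark 1.5-fold, and 21 genes beyond ±2 are not shown. Ednrb lies at −0.83, below the lower dashed line, and the other 4 endothelin genes lie between the lines.

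Ednrb was deposited as 2 transcripts, and both were lower in mutant tongues. NM_001136061, which starts farther upstream, had 12.7 FPKM in control and 8.62 FPKM in mutant tongues, a ratio of 0.680. NM_007904, which starts 477 bases nearer to the coding part on mm9, had 6.09 FPKM in control and 1.47 FPKM in mutant tongues, a ratio of 0.242. The control value exceeded the mutant value by 4.05 FPKM for the far start and by 4.62 FPKM for the near start. The near start made up 32.5% of the Ednrb value in control and 14.6% in mutant tongues.

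Both Ednrb transcripts encode the same receptor of 442 residues, since their 1326 coding bases were at the same positions in GENCODE M21. They differ at the 5′ end and by 1 base at the 3′ end. The far-start transcript is 3878 bases long as deposited but 4107 in GENCODE M21, where its part that is not shared is longer. On the deposited lengths, 159 bases of the near-start transcript and 48 bases of the far-start transcript are not shared, beside 3830 bases shared in GENCODE M21. At the deposited coverage these stretches are worth about 18.3 reads in control and 5.41 in mutant tongues for the near start, and 11.5 and 9.56 for the far start. The split between the starts therefore rests on few reads and on the estimation by the authors' tool, unlike the sum of both. The interval given for Ednrb does not cover that estimation.

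The 250 bases before the near start are shown because the transcript from that start had the lower ratio. They are from the RefSeq promoter table (GRCm38.p6), chr14:103843702-103843951, minus strand, written 5′ to 3′ with CG dinucleotides in capitals.
Ednrb near start: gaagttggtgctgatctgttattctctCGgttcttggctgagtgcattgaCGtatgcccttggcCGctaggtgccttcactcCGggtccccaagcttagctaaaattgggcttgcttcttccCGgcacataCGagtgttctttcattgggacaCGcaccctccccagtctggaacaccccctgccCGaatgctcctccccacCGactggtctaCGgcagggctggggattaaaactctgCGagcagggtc
The stretch holds 11 CG dinucleotides and is 56.8% G or C. The motif CAGTAGC, the core bound by odd-skipped zinc fingers, was searched on both strands over 250 bases before to 50 after each start. It was in 3.70% of 32851 mouse promoters and in none of the 11 RefSeq promoters of the members and Eef1akmt4. For Ednrb the 11 hold the near start only, so the bases before the far start were not searched. The SOX core ACAAAG was in 18.7% and the TATA box TATAAA in 13.6% of all promoters, and neither was in these 11. The GC box GGGCGG was in 35.7% of all promoters and in 5 of the 11, all among the promoters of Ece1, Ece2 and Eef1akmt4. With the GC box as the only motif found, no match overlapped another motif, and a missing match says only that these letters are not in the window.

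**Figure D3:**
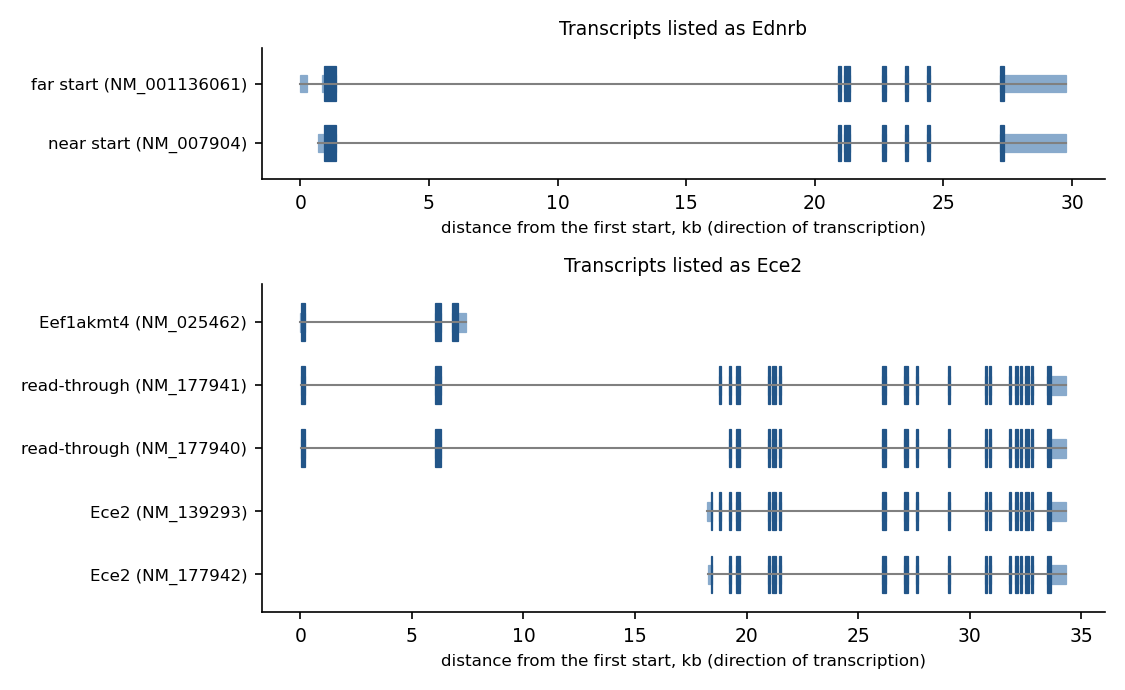
Exons of the transcripts deposited as Ednrb (top) and Ece2 (bottom) from GENCODE M21, against distance from the first start in kb along the direction of transcription; tall dark boxes are coding and low light boxes are untranslated bases. The Ednrb transcripts differ at the first exons and, by 1 base that is too small to see, at the last, and Eef1akmt4 shares no exon with the Ece2 transcripts proper.

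Ece1, the main converting enzyme of the precursor peptides, was one of the most abundant members. It (NM_199307, chromosome 4, 137418152 to 137521144) had 19.2 FPKM in control and 17.4 FPKM in mutant tongues, from about 1749 and 1936 reads. The ratio of 0.904 had a counting interval of 0.847 to 0.965, a small difference that was below the 1.2-fold threshold. Ece1 was deposited as 1 transcript, although RefSeq lists 4 starts for it, so isoforms that differ at the start were not separated.

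The symbol Ece2 covered more than one gene. Its 5 rows summed to 11.8 FPKM in control and 11.5 FPKM in mutant tongues, a ratio of 0.977 (0.838 to 1.14). RefSeq now gives the shortest of them, NM_025462 of 984 nt (chromosome 16, 20611674 to 20618942), to Eef1akmt4, a lysine methyltransferase of the elongation factor eEF1A. That row held 80.8% of the Ece2 value in control and 81.6% in mutant tongues, at 9.51 and 9.38 FPKM. None of its exon bases lay in the exons of the Ece2 transcripts proper, and its translated reading frame of 255 residues held no His-Glu-x-x-His motif, the zinc site shown above.

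The rows of the Ece2 peptidase itself, NM_139293 and NM_177942 (chromosome 16, 20629924 to 20645988), summed to 2.26 FPKM in control and 2.12 FPKM in mutant tongues. Their ratio of 0.939 had a counting interval of 0.740 to 1.19, which included no difference. The read-through transcripts that join both genes, NM_177940 and NM_177941, were listed at practically no FPKM in either library. Taken this way, Ece1 was 8.52 times as abundant as the Ece2 peptidase in control and 8.20 times in mutant tongues. The model of Ece2 overlaps that of Camk2n2, and the other 6 members overlap no other symbol in the files.

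**Figure D4:**
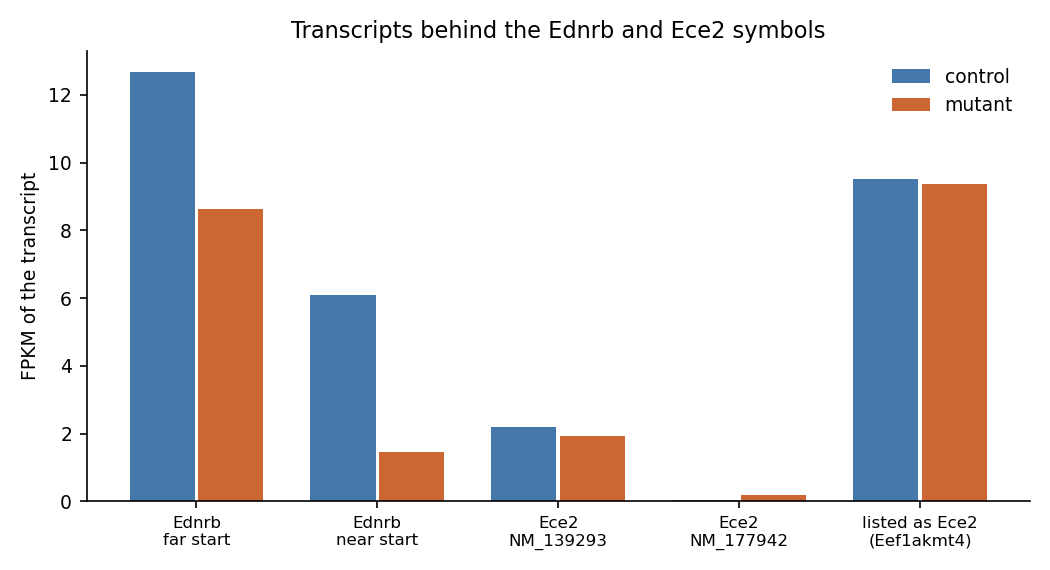
FPKM of the transcripts listed under Ednrb and Ece2 in the control (blue) and mutant (orange) library, 1 library each; the near-zero read-through rows are left out. Both Ednrb transcripts are lower in mutant tongues, the near start going from 6.09 to 1.47, and most of the Ece2 value is the Eef1akmt4 transcript at 9.51 and 9.38.

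Genes on either side of the ligand and receptor pair were described from lists of known function. For the list counts, 3.46% of all measured genes were at least 1.2-fold lower and 4.77% at least 1.2-fold higher. Among furin-type convertases, which make the first cut of the precursor, 5 of 8 were measured, with 1 at least 1.2-fold lower and none higher. This was Pcsk6, with 6.79 and 5.45 FPKM, a ratio of 0.803 (0.712 to 0.906), while Furin had a ratio of 1.10 (1.03 to 1.17). Among peptidases related to Ece1 or known to degrade endothelins, 3 of 6 were measured and none of these 3 reached 1.2-fold. Phex, a relative of Ece1, stayed under 1 FPKM and was not measured, at 0.463 and 0.933 FPKM. Its ratio was 2.02 (1.46 to 2.82), with a log2 ratio of 0.402 on the FPKM plus 1 scale. The intervals of the ratio of Mmel1 and Ecel1, also not measured, included no difference. Phex, Mmel1 and Ecel1 were named after their values were seen. Mme, which encodes neprilysin, a metallopeptidase that degrades endothelins, had 32.0 FPKM in control and 37.6 FPKM in mutant tongues, a ratio of 1.17 (1.12 to 1.24). Ctsa, a lysosomal carboxypeptidase, had a ratio of 1.07 (0.993 to 1.16).

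RNA levels of signal transduction genes downstream of the receptors were mostly close in both libraries, and signalling itself was not measured. On the scale of FPKM plus 1, all 14 measured genes of the G protein and phospholipase C list lay within 1.2-fold, with a median log2 ratio of 0.0070. Gnaq and Gna11, the G protein subunits that couple endothelin receptors to phospholipase C, had 21.9 and 22.7 FPKM, and 28.8 and 30.1 FPKM. Plcb3, a phospholipase C, had a ratio of 0.906 (0.836 to 0.982). The plain FPKM ratio passed 1.2 for the low genes Plcb1, at 1.29 (1.07 to 1.55), Plcb4, at 1.21 (1.01 to 1.44), and Prkca, a protein kinase C, at 1.25 (1.09 to 1.43), all named after their values were seen. All 10 measured genes of receptor desensitisation lay within 1.2-fold on the FPKM plus 1 scale as well, with a median of 0.0059. Among these, Rgs2, an inhibitor of Gq signalling, had a ratio of 0.832 (0.739 to 0.937).

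Genes that depend on Ednra signalling in the lower jaw were listed too. Of 9 genes 8 were measured, with 2 at least 1.5-fold higher, none at least 1.5-fold lower and a median log2 ratio of 0.07, where 0.896% of all measured genes were at least 1.5-fold higher. The 2 higher genes were the homeobox genes Dlx5 and Dlx6, named after their values were seen. Dlx5 had 1.62 and 3.63 FPKM, and Dlx6 had 0.827 and 2.06 FPKM, where Dlx6 passed the filter only through the mutant library. Hand1, a bHLH factor of the distal jaw, was at least 1.2-fold lower, with 8.49 and 6.44 FPKM and a ratio of 0.758 (0.643 to 0.895). Hand2, a main effector of Edn1 signalling in the arch, had 62.7 and 65.9 FPKM, with an interval of the ratio that included 1 (0.999 to 1.11). Barx1 and Mef2c had ratios of 1.04 and 1.07. Of the 8 genes, 6 had a log2 ratio above 0 and 2 below.

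Markers of the cell types that use Ednrb in other tissues were compared beside it. Of the melanoblast list, 9 of 10 symbols had rows and none reached 1 FPKM, with a summed level of 2.19 FPKM in control and 1.83 FPKM in mutant tongues. Its defining genes Dct, Tyrp1 and Mlana were listed at 0 in mutant tongues and rested on about 1 read each in control tongues. The highest of the list were Mitf, at 0.791 and 0.721 FPKM, and Tyr, at 0.612 and 0.673 FPKM, beside 18.8 and 10.1 FPKM of Ednrb.

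Schwann lineage markers were lower together with Ednrb in part. Their summed level was 71.5 FPKM in control and 59.3 FPKM in mutant tongues, with no marker at 0 in either. Of 9 measured genes 4 were at least 1.2-fold lower and 1 at least 1.2-fold higher, beside 3.46% and 4.77% of all measured genes. Their median log2 ratio was −0.22. Sox10, the defining transcription factor of this lineage, had 4.51 and 3.94 FPKM. Mbp, which encodes myelin basic protein, had 4.14 and 1.33 FPKM, was more than 1.5-fold lower, and was named after its values were seen. In all, 2 of the 9 genes were at least 1.5-fold lower, where 0.581% of all measured genes were. Gap43 had a ratio of 0.809 (0.702 to 0.931) and Ngfr one of 0.849 (0.787 to 0.916). Erbb3, the neuregulin receptor of Schwann precursors, had a ratio of 0.957 (0.882 to 1.04). The 1 higher gene was Fabp7, named after its values were seen, with a ratio of 1.55 (0.926 to 2.67). The part of this lineage in the low Ednrb value was not tested.

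Neuron markers had a summed level of 47.2 FPKM in control and 39.9 FPKM in mutant tongues. Of 11 measured genes 5 were at least 1.2-fold lower and 1 at least 1.2-fold higher, beside 3.46% and 4.77% of all measured genes. Their median log2 ratio was −0.26. That median rests on low genes: it was 0.018 among the genes that reached 5 FPKM, and −0.43 with a pseudocount of 0.1. Snap25, a synaptic SNARE protein gene named after its values were seen, was the lowest of the list, with 3.45 and 0.239 FPKM. Tubb3, the neuronal beta-tubulin, had 6.33 and 3.16 FPKM, whereas Dcx, which binds microtubules in migrating neurons, had 8.79 and 11.6 FPKM. Erythroid markers were also lower, with 3 of 6 measured genes at least 1.2-fold lower and a summed level of 1429 and 1177 FPKM. The part of neurons and blood in the low Ednrb value was not tested.

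Endothelium, where Ednrb and Ece1 are known to be active, had values close to each other in the libraries. Of 16 measured genes none was at least 1.2-fold lower and 2 were at least 1.2-fold higher, with a summed level of 123 FPKM in control and 128 FPKM in mutant tongues. Over all measured genes the shares were 3.46% lower and 4.77% higher. Cdh5, the endothelial cadherin, had 20.2 and 20.7 FPKM, and Pecam1 had 13.9 and 17.2 FPKM. Pericyte and smooth muscle markers, cells that use Ednra, had a summed level of 218 and 210 FPKM, with 1 of 8 measured genes at least 1.2-fold lower and 1 higher. Kcnj8, a potassium channel of pericytes, had a ratio of 0.747 (0.620 to 0.900), while Acta2 had 0.973 (0.936 to 1.01). The 1 higher gene was Tagln, with a ratio of 1.30 (1.05 to 1.61). Myh11 and Cnn1 stayed under 1 FPKM and were not measured, with ratios of 0.398 (0.284 to 0.552) and 0.403 (0.158 to 0.952). Both were named after their values were seen.

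Mesenchyme cells are among those in which Wnt1cre acts in the tongue. Their markers had a summed level of 1125 FPKM in control and 1108 FPKM in mutant tongues. Of 11 measured genes 2 were at least 1.2-fold lower and none higher, beside 3.46% and 4.77% of all measured genes. The median log2 ratio of the list was −0.11. This median was −0.067 after quantile normalization and −0.032 from the most abundant transcript of each gene. Dcn, the matrix proteoglycan decorin, had 17.2 and 11.7 FPKM, and Pdgfra, a receptor of fibroblast precursors, had the values given above. Epithelium markers, of the tissue that supplies Edn1 in the arches, had 1 of 12 measured genes at least 1.2-fold lower and a summed level of 144 and 128 FPKM. The 1 lower gene was Krt5, with a ratio of 0.796 (0.734 to 0.863). Of the 12 epithelium genes, 10 had a log2 ratio below 0 and 2 above, beside 6046 of all 12383 measured genes below 0. The median log2 ratio of epithelium markers was −0.092. Skeletal muscle markers had 1 of 12 at least 1.2-fold lower and a summed level of 731 and 768 FPKM.

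**Figure D5:**
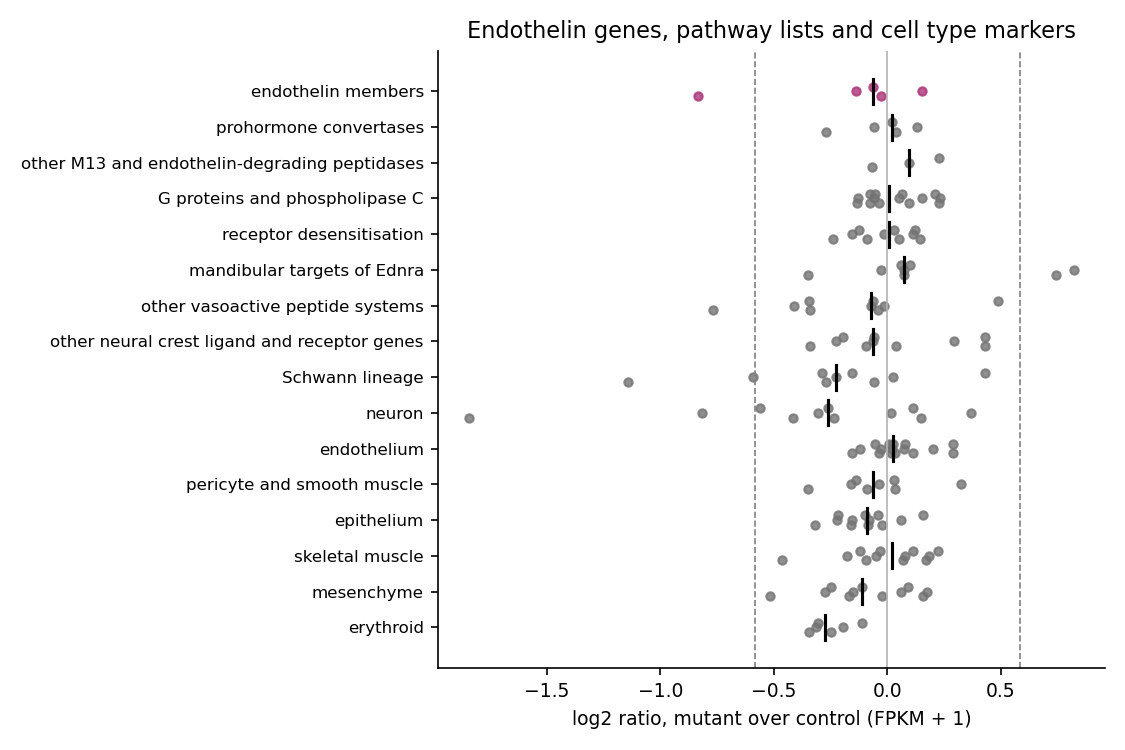
Log2 ratio of mutant over control (FPKM + 1) for each measured gene of the endothelin family (purple) and of the other lists (grey), with black bars at the list medians and dashed lines at 1.5-fold; melanoblast genes are not drawn, since none was measured. The endothelin genes lie near 0 except Ednrb at −0.83, and the medians of the erythroid, neuron and Schwann lineage lists are −0.28, −0.26 and −0.22, where that of neurons is 0.018 among genes of at least 5 FPKM.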

How the data were processed

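Per the labels' protocols, tongues were dissected at embryonic day 12, total RNA was extracted with a Qiagen micro kit and amplified cDNA was made with NuGEN's Ovation v2 assay. TopHat 1.4.1, Bowtie 0.12.7 and the build mm9 are named in the submitters' processing notes. The tables list each RefSeq transcript with its deposited FPKM and its deposited coverage (a signal that grows with depth), per the file headers. Neither the Cufflinks version nor the use of strand was given in the sources used here.

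Rows were summed per symbol. Ratios are plain ratios of FPKM, and thresholds and log2 ratios use FPKM plus 1, which understates low genes. A read was taken as 47.4 bases of coverage, the lowest common step. Of 2071 low values, from 0.5 to 3.5 reads, 61.6% lay within 0.15 of a whole number, so read numbers are approximate. Intervals are exact 95% Poisson (levels) and conditional (ratios) intervals, centred on the FPKM. They hold counting error alone and may understate it, because reads of amplified cDNA may stem from the same molecule. They compare libraries, not genotypes.

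Members and lists were chosen with earlier results of these data known. Named were all members, Osr1, Osr2, up to 4 genes per list by size of log2 ratio at 5 FPKM or more, the 3 genes nearest to each measured member in level and its measured chromosome neighbours. Other genes named for what they encode were Myog, Pdgfra, Gnaq, Gna11, Sox10, Cdh5, Dct, Tyrp1 and Mlana. Named after their values were seen were Mitf and Tyr, as the highest of their list, and the genes so marked in the text. Melanoblast genes were searched as 10 symbols, 2 of them names of 1 gene. The files' coordinates are mm9, counted from 1, and sequences are GRCm38. Proteins were translated from GENCODE M21 coding bases and aligned globally with Biopython 1.88. The measures were tested on simulated data. Python 3.11.15, pandas 2.3.3 and SciPy 1.17.1 were used. The values of one lineage marker gene are not reported here by name.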

Additional observations from a re-analysis of the deposited data

How the results depend on the processing

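Each member's log2 ratio was recomputed with a pseudocount of 0.1, with filters of 5 FPKM and none, on the TPM scale, after quantile normalization, from the transcript with the highest FPKM alone, and from reads estimated from coverage. The log2 ratio of Ednrb ran from −0.89 to −0.51. The highest of these came from the far-start transcript alone, which left Ednrb short of the 1.5-fold threshold, so that 0 members were at least 1.5-fold lower. This setting leaves out the near-start transcript by construction. For Ece2, an alternative chosen after seeing the data took the rows of the peptidase alone, at −0.06. Edn3 ran from 0.14 to 0.17, Ednra was −0.06 throughout and Ece1 ran from −0.15 to −0.14. Of the recomputed results on the members, 70 moved by less than the counting interval or kept their count, 2 moved by more, as just given, and none reversed. Some of the 70 could not move. A filter does not change a gene's ratio, nor does the transcript setting for a member with 1 row. The 70 thus overstate how stable the results were. Of 105 recomputed medians of the other lists 4 moved by more than the counting interval of their middle genes. Those of mesenchyme, under 2 settings, are given with that list. The median of the vasoactive list was −0.07 as reported and −0.21 at 5 FPKM or more, and that of the peptidases was 0.097 and, from the most abundant transcript, −0.070. The medians near 0 had no stable sign, running from −0.056 to 0.045 for G proteins and phospholipase C and from −0.051 to 0.010 for receptor desensitisation. No paired analysis was possible because each genotype had 1 library. Depth limits the ligands: the counting interval of the Edn2 ratio, 0.193 to 5.54, holds the ratio seen for Ednrb, and that of Edn1 begins at 0.563. With 1 library per genotype, variation between embryos was not measured.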

Other observations

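Other vasoactive peptide systems were looked at beside the endothelins. Of 26 listed genes 9 were measured, with 4 at least 1.2-fold lower and 1 at least 1.2-fold higher. The shares of all measured genes were 3.46% lower and 4.77% higher. Agtr2, a receptor of angiotensin, had 63.1 FPKM in control and 47.3 FPKM in mutant tongues, a ratio of 0.749 (0.713 to 0.786). Its level was above that of both endothelin receptors. Ramp2, a cofactor of the adrenomedullin receptor, had a ratio of 0.773 (0.651 to 0.919), and Npr3, the clearance receptor of natriuretic peptides, had 0.775 (0.726 to 0.828). The 1 gene at least 1.5-fold lower was Ramp3, named after its values were seen, at 4.26 and 2.09 FPKM. The 1 gene at least 1.2-fold higher was Npr1, a natriuretic peptide receptor likewise named after its values were seen, at 1.2003 and 2.087 FPKM, a ratio of 1.74 (1.35 to 2.25). Of the list, 2 genes were listed at 0 in control and 4 in mutant tongues.

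Of 13 other ligand and receptor genes of the neural crest 10 were measured, with 3 at least 1.2-fold higher and 1 lower. The shares of all measured genes were 4.77% higher and 3.46% lower. Gfra1 and Gfra2, coreceptors of the GDNF family, were higher in mutant tongues, with 13.2 and 18.2 FPKM for Gfra1 and 3.64 and 5.24 FPKM for Gfra2, ratios of 1.37 and 1.44. Kit, the receptor used beside Ednrb in melanoblasts, had 6.53 and 6.06 FPKM, and its interval of the ratio included 1 (0.833 to 1.03).

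The genes closest to Ednrb in level over the 2 libraries, by distance in log2 of FPKM plus 1, were Snora65, a small nucleolar RNA at 18.7 and 9.92 FPKM, then Dcn at 17.2 and 11.7 FPKM and Hs6st2, a heparan sulfate sulfotransferase gene, at 16.03 and 11.2 FPKM. The distances were 0.023, 0.23 and 0.25. The nearest genes to Ednra were Gtf3c4, Scrib and Nsmce2, those to Edn3 were Fam69b, Dclk1 and Gulp1, and those to Ece1 were Ppan, Mrps22 and Dpm3, at distances of 0.0095 to 0.017. For the Ece2 symbol they were Scmh1, BC024659 and Rabl5. A likeness over 2 libraries is a likeness in level and ratio alone.

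On the chromosome, the measured neighbours of Ednrb had ratios of 0.823 for Slain1 and 1.01 for Rnf219, beside 0.538 for Ednrb. Slain1, 110 kb away, had 1.09 and 0.895 FPKM, and Rnf219, 633 kb away, had 14.3 and 14.4 FPKM. Slain1 was close to the filter of 1 FPKM, and no counting interval was computed for the neighbours. The neighbours of Ece1 were Alpl, at 1.93 and 1.55 FPKM, and Eif4g3, at 29.5 and 30.0 FPKM. Beside Ednra lay Tmem184c and Rbmxrt, with ratios of 0.922 and 0.932. Beside Edn3 lay Slmo2, with a ratio of 0.922, and LOC664987, with a ratio of 1.41 from 3.98 FPKM in control tongues. Beside Ece2 lay Alg3 and Psmd2, with ratios of 0.890 and 0.998.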
